A study of Rattus norvegicus with 3 samples.

Results

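The S100 genes encode small proteins of a calcium-binding family, each with a pair of EF-hand loops. Most of them dock onto target proteins once calcium is bound. S100a8 and S100a9 form calprotectin, which neutrophils hold in their cytosol in large amounts and which binds zinc and manganese and engages the receptors Tlr4 and Ager when released. Other family members act inside connective tissue cells, and S100b has long served as a marker of cartilage cells. The set described here consisted of S100a1, S100a4, S100a6, S100a8, S100a9, S100a10, S100a11 and S100b, chosen by gene name. All 8 of 8 were found among the 20896 gene names of the 3 deposited cluster tables, each on 1 Ensembl identifier.

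The series profiled single-cell RNA of rat mandibular condyles, labelled as cartilage and subchondral bone with chondrocytes and osteoclasts as cell types. SD rats held under SPF conditions, labelled as wild type, received adeno-associated virus (AAV) into the temporomandibular joint. The sham group had Vector AAV and no unilateral anterior crossbite (UAC), the UAC group had Vector AAV and the crossbite, and the UAC + miR-330 group had miR-330 AAV and the crossbite. UAC is a dental malocclusion that loads the joint abnormally and is used as a model of temporomandibular osteoarthritis. Each group gave 1 library of 16 condyles from 8 rats mixed together, so no difference between groups could be checked against replicates. Both UAC samples carry 1 treatment label that does not name the microRNA, so the UAC + miR-330 group was identified from its sample title and the series design. The extraction notes speak of cultured cell lines; the tissue is given here as labelled. The labels state neither the age of the rats nor the promoter of the virus.

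A unique molecular identifier (UMI) tags 1 captured RNA molecule, and the counts per gene and cluster were recovered from the deposited mean counts. The sham library held 77668015 UMIs in 15 clusters, the UAC library 92629658 in 18 and the UAC + miR-330 library 97255383 in 19. Levels are given as UMIs per 1000000 UMIs of the library or cluster (CPM). Since the 3′ chemistry counts molecules and not fragments, levels of different genes are compared on this scale without a length term. The 95% intervals are exact Poisson intervals and cover counting error only. A gene was called higher or lower between libraries when the fold was at least 1.5, the intervals did not overlap and the gene had at least 50 UMIs in both libraries together. In sums of UMIs, fewer cells and less RNA per cell cannot be told apart.

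Clusters were named from marker lists. Neutrophil clusters took 2 of 15, 3 of 18 and 3 of 19 clusters in sham, UAC and UAC + miR-330. The UAC libraries each had another granulocyte cluster, numbered 18 in both and called Defa11-led after a defensin. One cluster per library, with 18, 17 and 18 of 20 chondrocyte markers enriched, is called chondrocyte-like; it also carried osteogenic and fibroblast markers, so it is not a pure chondrocyte population. The label's osteoclasts had no cluster of their own. In the chondrocyte-like cluster the 9 osteoclast markers summed to 207, 300 and 175 CPM, led by Ctsk, while Atp6v0d2, Ocstamp and Calcr among them were at 0 UMIs in all 3 libraries. A macrophage-marker cluster was present in each library, and the largest part of the UMIs, 57.4%, 44.3% and 45.6%, lay in clusters named B-marker. A further 1, 3 and 3 clusters also reached the B marker threshold but were named for another class or by number, and with them the parts were 72.0%, 65.3% and 68.3%, so the former shares are no measure of B cells between libraries. The labelled cell types therefore describe a minor part of what was captured.

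Calprotectin dominated the S100 family in this tissue. S100a8 and S100a9 together took 3.45% of all UMIs in sham, 5.32% in UAC and 3.69% in UAC + miR-330. They made up 96.4%, 97.5% and 96.9% of the UMIs of the 8 members. The remaining 6 members were thus a small part of S100 RNA by molecule count, and their places of expression were different.

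S100a8, the smaller calprotectin subunit, stood at 13738 CPM in sham, 19795 in UAC and 13807 in UAC + miR-330. S100a9, its partner, stood at 20766, 33370 and 23125. Both were highest in the UAC library, and S100a9 exceeded S100a8 in every library. S100a9 rose 1.61-fold from sham to UAC (log2 ratio 0.68), whereas the 1.44-fold ratio of S100a8 did not reach the fold. Without the neutrophil and Defa11-led clusters the log2 ratio of S100a9 was 0.57, short of the fold, so this call was lost. On the scale of the deposited mean counts, which lies 0.20 log2 units higher for this comparison, S100a8 also passed. That shift is the same for every gene, so on that scale genes can only gain higher calls and lose lower ones. Shares of all genes are given on the CPM scale only. Of 9 neutrophil markers, 5 were also higher in UAC than in sham (Camp, Ngp, Lcn2, Mmp8 and Cxcr2) and 0 lower. Of all genes 6.02% were higher and 5.11% lower. The median log2 ratio of the 9 was 0.60, beside -0.02 for all genes. From UAC to UAC + miR-330, 2 of 9 (Ngp and Retnlg) were lower and 0 higher, against 2.91% and 9.93% of genes. Both calls were lost on the scale of the deposited mean counts. The part of these markers in the calprotectin levels was not tested.

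Over all clusters, 1 of 8 members (S100a9) was higher in UAC than in sham, against 6.02% of the 14235 genes compared, and 2 (S100b and S100a1) were lower, against 5.11%. Between UAC + miR-330 and UAC, 0 of 8 members passed in either direction, against 9.93% of genes higher and 2.91% lower. Without the neutrophil and Defa11-led clusters, S100a8 (log2 ratio -0.96) and S100a9 (-0.93) passed as lower. Between UAC + miR-330 and sham, 0 members were higher and 2 were lower (S100b and S100a1), against 17.2% and 7.11% of genes. On the scale of the deposited mean counts, 0.43 log2 units higher for this comparison, both calls were lost (log2 ratios -0.54 and -0.37), and S100a9 (0.59) and S100a11 (0.68) passed as higher. The last comparison uses libraries that the others also use. The median log2 ratio of the 8 members was 0.12 for UAC against sham, beside -0.02 for all genes, and -0.28 for UAC + miR-330 against UAC, beside 0.13 for all genes.

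Most calprotectin RNA lay in neutrophils. The neutrophil clusters held 94.7% of S100a8 UMIs in sham, 74.6% in UAC and 78.3% in UAC + miR-330, and the Defa11-led cluster of the UAC libraries held another 20.4% and 18.0%. For S100a9 the neutrophil shares were 96.0%, 78.9% and 82.0%. The class held different cells in each library: sham had no Defa11-led cluster, and its neutrophil cluster 10 had Defa11 at 495 CPM and Mpo at 44.4, whereas in the neutrophil clusters of the UAC libraries Defa11 did not exceed 21.5 and Mpo did not exceed 4.92. The neutrophil clusters themselves took 10.0%, 12.3% and 10.6% of all UMIs, so the order of the libraries in neutrophil UMIs was the same as in S100a9. Whether the number of neutrophils moved the library levels was not tested.

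Inside the neutrophil clusters the calprotectin levels differed by less than the fold between libraries. S100a8 was at 129445 CPM in sham, 119836 in UAC and 101751 in UAC + miR-330, and S100a9 at 198421, 213746 and 178456. In these clusters 0 of 6 members with enough UMIs were called between UAC and sham, where 1.68% of genes were higher and 7.54% lower. For UAC + miR-330 against UAC, 0 members were higher, against 18.3% of genes, and 1 was lower, against 1.45%. That gene was S100a10, a member nearly absent from neutrophils, at 7.31, 7.71 and 4.65 CPM. Its call was lost on the scale of the deposited mean counts, a check chosen after seeing the data (log2 ratio -0.49). With UAC + miR-330 set against sham, 0 members were called, against 19.7% of genes higher and 7.36% lower, and on that scale S100a6 (0.67) and S100a11 (0.73) passed as higher.

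In the Defa11-led cluster, compared after the data were seen, calprotectin passed the fold. S100a8 was at 113688 CPM in UAC and 69355 in UAC + miR-330 (1.64-fold lower), and S100a9 at 165044 and 99144 (1.66-fold lower). Of 5 members with enough UMIs these 2 were lower, against 1.31% of genes, and 1 was higher, S100a10 (6.67 and 14.9), against 20.0%. The calprotectin calls were lost on the scale of the deposited mean counts (log2 ratios -0.48 and -0.50). The clusters of the 2 libraries were not alike in other genes: the primary granule gene Elane was at 60.0 in UAC and 1621 in UAC + miR-330 and Mpo at 297 and 1125, and 3 and 7 of 8 primary granule markers were enriched, while UAC had 6 of them enriched in its cluster 13. Of 8 neutrophil markers, 4 were also lower there (Ngp, Cd177, Retnlg and Mmp8) and 0 higher; the part of these cells and markers in the calprotectin ratios was not tested.

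The share of RNA given to calprotectin was largest in the neutrophil clusters rich in secondary granule transcripts. In sham cluster 10, S100a8 and S100a9 took 35.3% of all UMIs, and in UAC cluster 12 they took 36.9%. These clusters also had the highest levels of the granule gene Ngp among the neutrophil clusters of their library, 32120 in sham and 47036 in UAC. The corresponding cluster 9 of UAC + miR-330 had 33722 for Ngp, 112194 for S100a8 and 200597 for S100a9. Neutrophil clusters with high Mmp8 and Retnlg, which mark later stages, still held S100a8 between 73076 and 125203 CPM.

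S100a11, a partner of annexin A1, followed another order within the neutrophil lineage. In UAC it stood at 934 CPM in the Defa11-led cluster, 1811 in the Ngp-rich cluster 12, 2977 in cluster 8 and 3610 in cluster 7. In UAC + miR-330 the corresponding levels were 756, 2098, 3331 and 4192, and in sham the Ngp-rich cluster 10 had 1693 and cluster 8 had 3247. In all 3 libraries, therefore, S100a11 was lower in the Ngp-rich cluster than in the other neutrophil clusters, though it did not follow Ngp from cluster to cluster: Ngp was at 16670 in UAC cluster 7 and 192 in cluster 8. S100a8 did not follow this order: the Ngp-rich cluster was the highest of the neutrophil clusters in each library, at 140006, 130346 and 112194.

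S100a6, a binder of Cacybp that is known from fibroblasts and growing cells, appeared in neutrophils in 1 kind of cluster. It was at 280 CPM in sham cluster 8, 488 in UAC cluster 8 and 512 in UAC + miR-330 cluster 6. In the other neutrophil clusters it did not exceed 39.1. The 3 clusters with high S100a6 also had the highest levels of the interferon-induced gene Ifit3, at 889, 1698 and 1522, a gene chosen after its values were seen. S100a6 thus separated neutrophil clusters that S100a8 and S100a9 did not separate to the same degree.

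**Figure D1:**
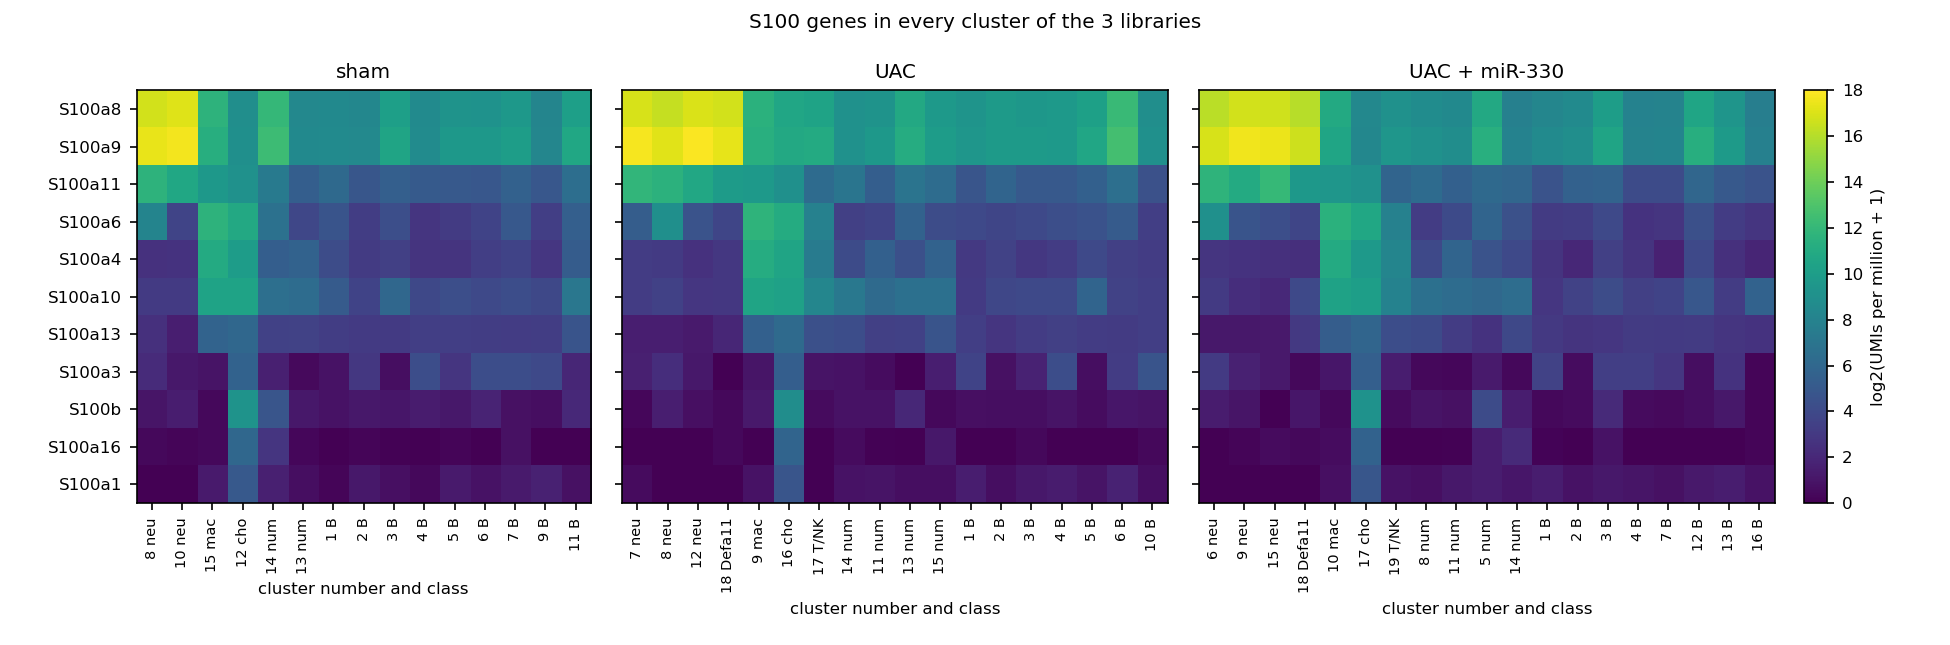
Level of the 8 S100 members and of S100a3, S100a13 and S100a16 in every cluster of the 3 libraries, as log2 of CPM plus 1 (color scale). Columns are clusters, with the class after the number (neu, neutrophil; Defa11, Defa11-led; T/NK, T and NK-like; mac, macrophage-marker; cho, chondrocyte-like; num, named by number only; B, B-marker). S100a8 and S100a9 are brightest in the neutrophil and Defa11-led clusters and present in every cluster, while S100b is high in the chondrocyte-like cluster, where it reached 602, 456 and 586 CPM.

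Calprotectin UMIs were counted in every cluster of every library. In the B-marker clusters, a lineage that does not make neutrophil granule proteins, S100a8 had a median of 579 CPM in sham, 817 in UAC and 348 in UAC + miR-330. S100a9 had medians of 762, 888 and 429 there. Levels of this size were taken as the background against which the other clusters were read. Doublets were not treated and free RNA was not subtracted from the levels given.

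The amount of neutrophil RNA in each cluster was estimated from 8 neutrophil genes other than the S100 members. For Ngp, Camp, Lcn2, Mmp8, Retnlg, Cd177, Cxcr2 and Csf3r the level in a cluster was divided by the level in the neutrophil clusters of the same library, and the median of the 8 shares was taken. A 9th gene on the list, Ltf, was left out because it had almost no UMIs in the neutrophil clusters. The median share over B-marker clusters was 0.503% in sham, 0.610% in UAC and 0.341% in UAC + miR-330. In the chondrocyte-like cluster it was 0.444%, 1.08% and 0.306%, so the UAC library stood above the other libraries there.

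The estimate differed from marker to marker. In the sham chondrocyte-like cluster it ran from 0.217% for Cd177 to 1.72% for Csf3r, in UAC from 0.462% for Retnlg to 2.01% for Csf3r, and in UAC + miR-330 from 0.0782% for Cxcr2 to 0.436% for Camp. The highest sham and UAC values rested on 11 and 8 Csf3r UMIs. The ranges of sham and UAC overlapped, which limits what the medians can separate.

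S100a8 in the chondrocyte-like cluster was at 477 CPM in sham (interval 463 to 492), 1627 in UAC (1595 to 1660) and 335 in UAC + miR-330 (320 to 350). S100a9 was at 495 (480 to 510), 1891 (1856 to 1926) and 321 (307 to 336). The UAC value stood apart from the other libraries for both genes. S100a8 rose 3.41-fold (log2 ratio 1.77) and S100a9 rose 3.82-fold (1.93) from sham to UAC. From UAC to UAC + miR-330, S100a8 was 4.86-fold and S100a9 5.89-fold lower.

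Most neutrophil markers moved with calprotectin in this cluster. Of the spread markers with enough UMIs there, 5 of 6 were higher in UAC than in sham (Camp, Ngp, Lcn2, Mmp8 and Cd177), against 7.3% of genes, with a median log2 ratio of 1.79 beside 0.14 for all genes. The other, Retnlg, had the opposite sign and did not pass (45.5, 36.8 and 6.80 CPM; log2 ratio -0.30). Of 6, 6 were lower in UAC + miR-330 than in UAC, against 5.6% of genes, with a median of -1.84 beside 0.02 for all genes. Camp, for one, was at 89.2, 389 and 101 CPM, and Ngp at 102, 326 and 64.2. Their part in the differences of S100a8 and S100a9 was not tested.

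The neutrophil share, multiplied by the neutrophil level, gave an expected S100a8 level in the chondrocyte-like cluster of 575 CPM in sham, 1295 in UAC and 312 in UAC + miR-330. These values are 120%, 79.6% and 93.1% of the measured level. For S100a9 the expected levels were 881, 2310 and 547, or 178%, 122% and 170% of the measured level. S100a9 was thus at or below the estimate in all 3 libraries, and S100a8 exceeded it in both UAC libraries, by more in UAC. Some B-marker clusters exceeded their estimate as well, and others did not. S100a8 in UAC cluster 2 was at 0.730% of its neutrophil level, beside a median marker share of 0.573%. In UAC + miR-330 cluster 3 it was at 1.00%, beside 0.716%. The excess was therefore not particular to the chondrocyte-like cluster. After the neutrophil part was subtracted, S100a8 in the chondrocyte-like cluster had 336 CPM left in UAC and 23.1 in UAC + miR-330. Sham came out negative at -97.7. The Defa11-led cluster was not part of the source for any cluster. It had S100a8 at 113688 CPM in UAC and 69355 in UAC + miR-330, with Mmp8 at only 110 and 54.5. RNA from it is thus not covered by the subtraction, and its part in what was left was not tested. With the largest of the 8 marker shares in place of the median, the expected S100a8 level of the UAC cluster was 148% of the measured one. With the neutrophil cluster of highest late markers alone as the source, the expected S100a8 part was 141%, 116% and 85.4% of the measured level, so the excess in UAC was not kept. How much calprotectin RNA the skeletal cells themselves held could not be read from these levels.

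The B-marker clusters gave a comparison that needs no neutrophil markers. S100a8 was higher than in the chondrocyte-like cluster in 5 of 9 B-marker clusters of sham, in 1 of 7 of UAC and in 4 of 8 of UAC + miR-330. Over all clusters at the B marker threshold, a choice made after seeing the data, it was 5 of 10, 1 of 10 and 6 of 11. The UAC cluster that exceeded it was cluster 6, with 4695 CPM of S100a8 and the largest median neutrophil share among B-marker clusters, 3.47%. S100a8 levels in sham and UAC + miR-330 chondrocyte-like clusters therefore lay inside the range of clusters of another lineage, and so did the UAC level because of that cluster.

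Defensin genes were also high in the UAC chondrocyte-like cluster. RatNP-3b, picked out once its values were known, was at 27.5 CPM in sham, 808 in UAC and 55.6 in UAC + miR-330, and Defa11 was at 0.222, 22.9 and 0. In UAC both exceeded all 7 B-marker clusters, where RatNP-3b reached 78.0 at most. The neutrophil late markers, 8 of 9 listed, summed to 87.5, 125 and 31.4 in this cluster, with Retnlg, Mmp8 and Mmp8 as the most abundant gene and Fpr1 at 0 in both UAC libraries. The secondary granule markers, 6 of 8 listed, summed to 1435, 2204 and 1282, but most of that was Anxa1, which connective tissue cells also make. Primary granule markers, 8 of 8 listed, summed to 5.32, 20.2 and 7.82, with Prss57 at 0 in UAC. The part of such cells in S100a8 and S100a9 was not tested.

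**Figure D2:**
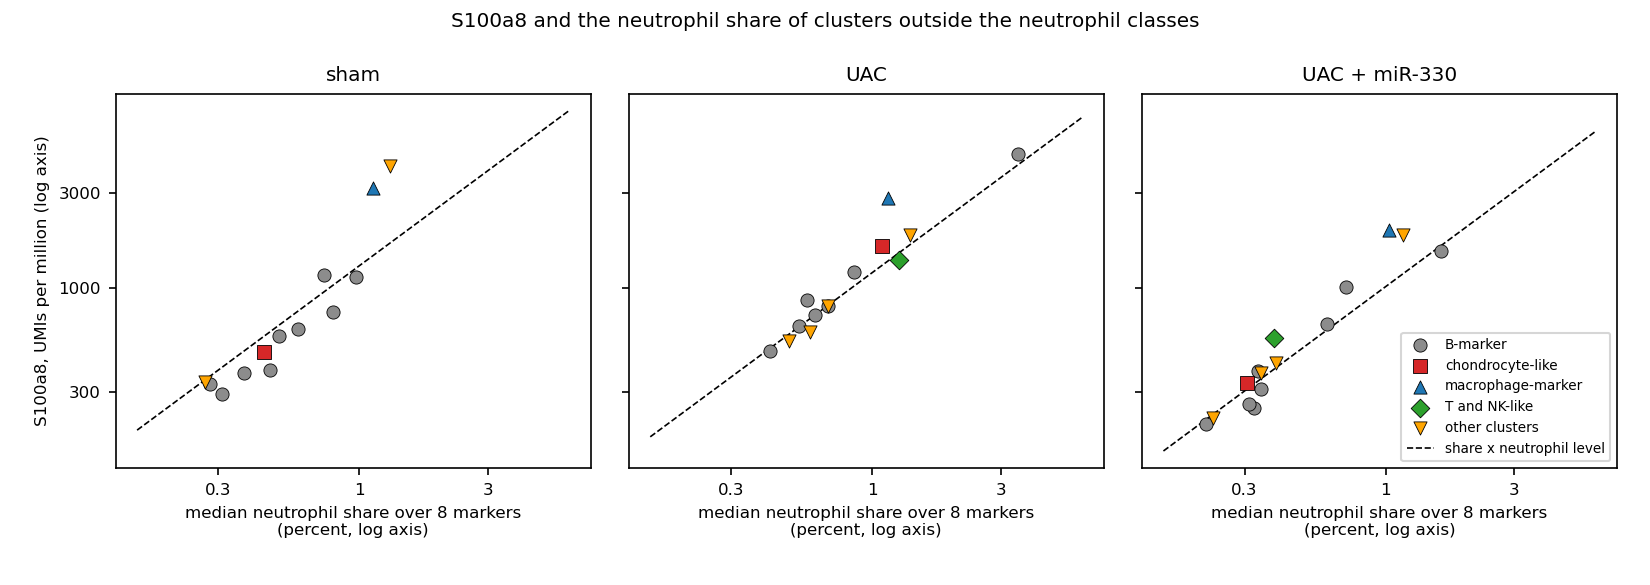
S100a8 level (vertical, CPM, log axis) against the median neutrophil share of 8 markers (horizontal, percent, log axis) in every cluster outside the neutrophil and Defa11-led clusters. Each point is 1 cluster, and the dashed line is the share multiplied by the S100a8 level of the neutrophil clusters of that library. Most B-marker clusters lie near the line, and the chondrocyte-like cluster lies near it. The macrophage-marker clusters, at 3169, 2847 and 1962 CPM, lie above it, as does sham cluster 14, at 4074 CPM.

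The proportion of the calprotectin subunits gave a further description of the spread. S100a8 divided by S100a9 lay between 0.640 and 0.659 in the neutrophil clusters of sham, between 0.546 and 0.580 in UAC and between 0.559 and 0.589 in UAC + miR-330. It was higher, 0.689 and 0.700, in the Defa11-led clusters. Outside these granulocyte clusters the ratio exceeded the highest neutrophil value in 13 of 13 clusters of sham, 14 of 14 of UAC and 15 of 15 of UAC + miR-330. The intervals were apart from it as well in 12, 14 and 14 of them. Some of these ratios lay between those of the neutrophil and Defa11-led clusters of the same library, at 0.670 in UAC cluster 17 and at 0.683 and 0.603 in UAC + miR-330 clusters 3 and 12. What sets this ratio was not tested.

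The ratio also differed between the other classes. Its median over B-marker clusters was 0.814 in sham, 0.935 in UAC and 0.812 in UAC + miR-330, and in the chondrocyte-like cluster it was 0.965, 0.860 and 1.04. In the macrophage-marker cluster it was 1.30, 1.08 and 1.25, the highest of all clusters in each library. S100a8 exceeded S100a9 there, the reverse of the neutrophil order.

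In the macrophage-marker cluster S100a8 stood above the estimate made with the median share, by a margin that depended on the source chosen. S100a8 was at 3169, 2847 and 1962 CPM and S100a9 at 2438, 2644 and 1569 in sham, UAC and UAC + miR-330. The expected neutrophil part was 45.8%, 48.2% and 53.2% of the S100a8 level, and 91.2%, 92.6% and 117% of the S100a9 level. After subtraction S100a8 had 1738, 1492 and 928 CPM left. With the neutrophil cluster of highest late markers alone as the source, the expected part was 92.7%, 67.5% and 91.7% of the S100a8 level and 188%, 127% and 195% of the S100a9 level. Sham cluster 14, of another class, and UAC B-marker cluster 6 had more S100a8, 4074 and 4695 CPM. In sham cluster 14 S100a8 was at 3.15% of its neutrophil level, beside a median marker share of 1.30%. In the sham macrophage-marker cluster these were 2.45% and 1.12%, so standing above the estimate was not particular to this class. Csf3r, which monocytes also express, gave shares of 69.2%, 72.7% and 56.0% in this cluster, so the highest marker share says nothing about spread here. The cluster was led by Fcnb and Vcan and had 12 enriched macrophage markers in each library. Vcan is a gene of monocytes, whereas Fcnb is on the primary granule list used here. It was the 1 marker of that list enriched in this cluster.

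Calprotectin in this cluster was called in the comparisons of UAC + miR-330. Between UAC and sham, 0 of 6 members passed, against 2.43% of genes higher and 6.02% lower. For UAC + miR-330 against UAC, 0 members were higher, against 10.9% of genes, and 1 was lower, against 2.3%. That was S100a9, which was 1.68-fold lower, while S100a8 had a 1.45-fold ratio and did not pass. With UAC + miR-330 set against sham, 0 members were higher, against 11.2% of genes, and 2 were lower, against 5.12%: S100a8 (1.62-fold) and S100a9 (1.55-fold). All 3 calls were lost on the scale of the deposited mean counts, a check chosen after seeing the data, with log2 ratios of -0.52 for S100a9 against UAC and of -0.26 and -0.20 for S100a8 and S100a9 against sham. Of 7 neutrophil markers in this cluster, Retnlg (79.8, 83.8 and 5.85 CPM) and Mmp8 (52.3, 75.0 and 18.4) were also lower in UAC + miR-330 than in UAC and than in sham, while Lcn2 (18.3, 52.1 and 75.5) was higher than in sham. The defensin gene RatNP-3b, picked out once its values were known, was at 618, 45.8 and 50.6 CPM in this cluster. The part of these genes in the calprotectin calls was not tested.

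S100a4, S100a6 and S100a10 had 2 places of high expression, the macrophage-marker and the chondrocyte-like cluster. S100a4, which binds nonmuscle myosin and is common in migrating fibroblasts and monocytes, was at 2094, 2231 and 2098 CPM in the macrophage-marker cluster of sham, UAC and UAC + miR-330. S100a6 was at 3227, 3388 and 2875 there. S100a10, the partner of annexin A2 at the cell membrane, was at 1407, 1487 and 1348. Each of these genes had its highest level of the library in this cluster, and none of the 3 was called there between UAC and sham or between UAC + miR-330 and UAC.

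In the chondrocyte-like cluster S100a6 was at 1830, 2159 and 1703 CPM and S100a10 at 1369, 1281 and 1083. For S100a10 in sham, the macrophage-marker level (interval 1368 to 1448) and the chondrocyte-like level (1345 to 1393) overlapped, while in both UAC libraries the macrophage-marker cluster was higher. S100a4 was at 978 in sham (interval 958 to 999), 1448 in UAC (1418 to 1479) and 839 in UAC + miR-330 (816 to 863). S100a4 was thus highest in UAC, like S100a8, S100a9 and S100a6 in the same cluster.

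The UAC to sham ratio of S100a4 was 1.48-fold and just short of the fold of 1.5; on the scale of the deposited mean counts it passed. From UAC to UAC + miR-330, S100a4 was 1.73-fold lower (log2 ratio -0.79), a call that was lost on the scale of the deposited mean counts, which lies 0.24 log2 units higher for this comparison. S100a4 was at 5.13, 6.57 and 5.13 CPM in the neutrophil clusters, and the estimated neutrophil part of its chondrocyte-like level was 0.00233%, 0.00490% and 0.00187%. Neutrophil RNA as estimated here was thus a negligible part of S100a4. The fibroblast markers, 11 of 12 listed and led by Col3a1, summed to 12968, 12440 and 10538 CPM in the chondrocyte-like cluster. The macrophage markers summed to 427, 452 and 352, led by Ctsb, with Cd163 and Vsig4 at 0 in each library. Osteoclast markers were at the sums given above, also highest in UAC. The part of these cell types in the S100a4 level was not tested.

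In the chondrocyte-like cluster as a whole, 2 of 8 members (S100a8 and S100a9) were higher in UAC than in sham, against 7.3% of the 10052 genes compared, and 0 were lower, against 0.915%. Between UAC + miR-330 and UAC, 0 of 8 were higher, against 6.49% of genes, and 3 (S100a8, S100a9 and S100a4) were lower, against 5.6%. When UAC + miR-330 was set against sham, 0 were higher, against 15.7%, and 1 (S100a9) was lower, against 2.75%, a call that was lost on the scale of the deposited mean counts (log2 ratio -0.19). Of 5 neutrophil markers with enough UMIs there, 2 were also lower than in sham (Ngp and Retnlg) and 0 higher. Their list median was -0.44, beside 0.15 for all genes, and their part in the S100a9 call was not tested. The members that passed on the CPM scale were both calprotectin genes and S100a4, and neither S100b nor S100a1 passed. On the scale of the deposited mean counts S100a4 passed as higher in UAC than in sham (log2 ratio 0.76). For UAC + miR-330 against UAC, S100a4 was lost on that scale (-0.55) and S100b passed as higher (0.60).

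The place that held most RNA of the shared members differed between libraries. The chondrocyte-like cluster held 51.6%, 36.8% and 25.3% of S100a4 UMIs, 56.1%, 36.0% and 33.2% of S100a6 UMIs and 61.5%, 37.9% and 35.5% of S100a10 UMIs in sham, UAC and UAC + miR-330. The macrophage-marker cluster held 41.4%, 55.6% and 64.4% of S100a4 UMIs. Over the same libraries the chondrocyte-like cluster took 11.6%, 6.46% and 6.05% of all UMIs and the macrophage-marker cluster 4.36%, 6.33% and 6.16%. In sham most UMIs of these 3 genes came from the chondrocyte-like cluster, and in the UAC libraries they did not. The part of cluster size in this was not tested.

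Over whole libraries the same 3 genes stayed within the fold. S100a4 was at 220, 254 and 201 CPM, S100a6 at 379, 387 and 310, and S100a10 at 258, 218 and 185. A lower level of each was present in T and NK-like clusters, which were separate only in the UAC libraries. There S100a4 was at 177 and 298, S100a6 at 238 and 243 and S100a10 at 307 and 248 CPM in UAC and UAC + miR-330.

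S100a10 was also detectable outside these clusters. Its median over the B-marker clusters was 18.5, 13.2 and 10.8 CPM, and the highest B-marker cluster of sham, cluster 11, had 137. That cluster had 5 T and NK markers enriched beside 5 B markers, so its level is not one of B cells alone. For S100a6 the B-marker levels did not exceed 42.0 in sham, 35.1 in UAC and 19.7 in UAC + miR-330. Among the shared members S100a10 therefore had the highest level in a B-marker cluster of the sham library, a ranking that rests on the mixed cluster 11.

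S100a11 was present in the chondrocyte-like and macrophage-marker clusters and higher in neutrophils. It was at 2300, 2736 and 2830 CPM in the neutrophil clusters, 757, 810 and 715 in the macrophage-marker cluster and 562, 531 and 537 in the chondrocyte-like cluster. The neutrophil part of its chondrocyte-like level was estimated at 1.82%, 5.57% and 1.61%. After that part was subtracted, S100a11 had 554, 506 and 530 CPM left in the chondrocyte-like cluster. Its library level was 364, 492 and 434, and the UAC to sham log2 ratio of 0.44 became -0.03 without the neutrophil and Defa11-led clusters.

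S100b marked the chondrocyte-like cluster. This cluster held 97.7% of S100b UMIs in sham, 97.5% in UAC and 97.0% in UAC + miR-330. In it S100b was at 602 CPM (interval 586 to 618), 456 (439 to 473) and 586 (567 to 606). The UAC value was the lowest and its interval was apart from the others, but the ratios of 1.32-fold to sham and 1.29-fold to UAC + miR-330 did not reach the fold. On the scale of the deposited mean counts the second of these ratios passed. The next highest S100b levels were in sham cluster 14 and UAC + miR-330 cluster 5, with 25.8 and 16.2 CPM.

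In whole libraries S100b was at 71.6, 30.2 and 36.6 CPM. It was 2.37-fold lower in UAC than in sham (log2 ratio -1.25) and 1.96-fold lower in UAC + miR-330 than in sham. The chondrocyte markers, 20 of 20 listed and led by Col2a1, summed to 7591, 3361 and 4127 CPM in whole libraries and to 63603, 50581 and 65725 within the chondrocyte-like cluster. S100b and the chondrocyte markers were thus both highest in sham over whole libraries and both lowest in UAC in either view. The chondrocyte-like cluster also took its largest share of UMIs in sham, and the part of that share in the S100b result was not tested.

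S100a1, which binds the ryanodine receptor in muscle and is also found in cartilage, was the least abundant member. It was at 4.38 CPM in sham, 2.47 in UAC and 2.51 in UAC + miR-330, and was 1.77-fold lower in UAC than in sham. The chondrocyte-like cluster held 83.8%, 68.1% and 64.3% of its 340, 229 and 244 UMIs, at 31.6 CPM (interval 28.0 to 35.5), 26.1 (22.2 to 30.5) and 26.7 (22.7 to 31.2). Within the cluster a difference was not detectable at this depth. In the neutrophil clusters S100a1 had 0 UMIs in sham and in UAC + miR-330, with upper limits of 0.473 and 0.357 CPM, and 2 UMIs in UAC.

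**Figure D3:**
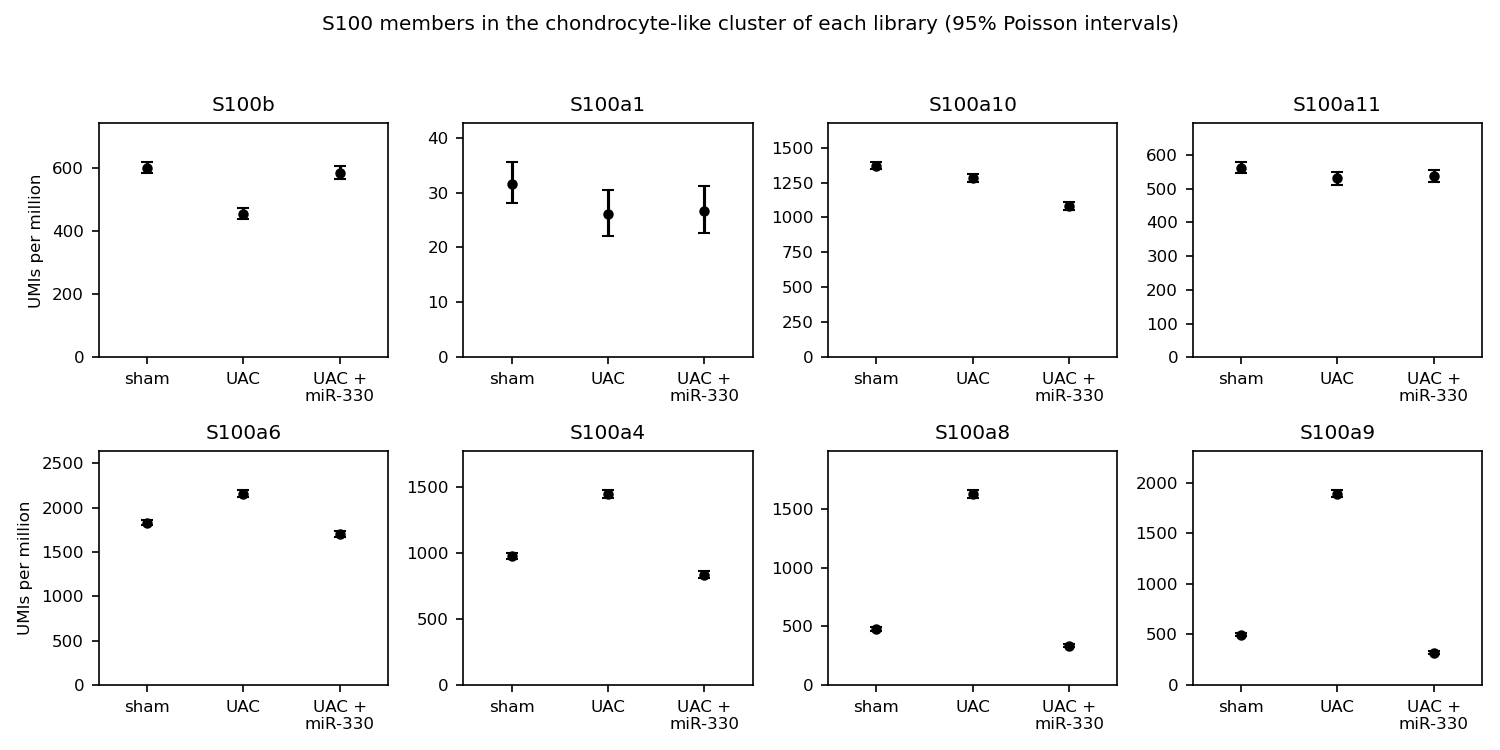
Level of each S100 member in the chondrocyte-like cluster of the 3 libraries, in CPM. Points are the 1 library of each group and bars are exact Poisson 95% intervals, which cover counting error only. S100a8, S100a9, S100a4 and S100a6 are highest in UAC, at 1627, 1891, 1448 and 2159, while S100b is lowest in UAC, at 456.

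Of the other S100 genes, S100a3, S100a13 and S100a16 had their highest levels in the chondrocyte-like cluster. This cluster held 96.8%, 97.1% and 91.3% of S100a16 UMIs, 43.2%, 31.7% and 28.5% of S100a13 UMIs and 58.6%, 44.0% and 45.6% of S100a3 UMIs. S100a13 was at 64.2, 74.9 and 57.4 CPM in the chondrocyte-like cluster and at 52.0, 45.0 and 39.4 in the macrophage-marker cluster. S100a16 was at 63.6, 55.3 and 49.8 and S100a3 at 48.6, 41.5 and 41.8 in the chondrocyte-like cluster. Outside it S100a16 did not exceed 5.81 CPM, while S100a3 reached 18.4, 24.4 and 10.7 in B-marker clusters. In whole libraries S100a16 (7.64, 3.68 and 3.30) and S100a3 (9.62, 6.08 and 5.55) were lower in UAC than in sham, like S100b and S100a1. They were 2 of 3 other S100 genes with enough UMIs, and 0 were higher, against 5.11% of all genes lower and 6.02% higher. On the scale of the deposited mean counts, a check of this and the next lists that was chosen after seeing the data, the S100a3 call was lost (log2 ratio -0.47). S100a5, picked out once its values were known, had 6, 43 and 20 UMIs in the 3 libraries, and its lower level in UAC + miR-330 than in UAC passed the rule but not on that scale. It was 1 of 4 other S100 genes with enough UMIs in that comparison, against 2.91% of genes lower.

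The family's binding partners and receptors were followed as a list of 23 genes, of which 21 were listed in the tables. Over all clusters 19 had enough UMIs, and 2 were higher (Anxa1 and Emb) and 1 lower (Tpm1) in UAC than in sham, with a median log2 ratio of 0.08; of all genes 6.02% were higher and 5.11% lower. The Tpm1 call was lost on the scale of the deposited mean counts (log2 ratio -0.40), and Myh10, Tlr4 and Cd33 passed as higher. Anxa1, the annexin bound by S100a11, was at 1614, 2563 and 1843 CPM, and at 13642, 15175 and 12780 in the neutrophil clusters. Emb, a membrane protein on this list, was at 37.2, 57.0 and 80.9, and Tpm1, a tropomyosin, at 31.8, 21.0 and 25.6. Anxa1 thus was, like calprotectin, a gene with higher levels in the neutrophil clusters than in the library as a whole.

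Anxa2, with which S100a10 forms a tetramer, was at 256, 327 and 329 CPM, and Cacybp, the partner of S100a6, at 215, 203 and 219. Neither passed the fold. Between UAC + miR-330 and UAC, Ahnak, a scaffold bound by S100a10 and Anxa2, was higher over all clusters (69.2, 76.7 and 116 CPM) and the nonmuscle myosin heavy chain Myh10 was lower (13.4, 20.0 and 12.5), with a median of -0.02 over the list. Of all genes 9.93% were higher and 2.91% lower in this comparison. The Myh10 call was lost on the scale of the deposited mean counts (log2 ratio -0.44), where Emb passed as higher.

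Within the chondrocyte-like cluster 15 partners had enough UMIs. For UAC against sham, 3 were higher and 0 lower, against 7.3% and 0.915% of genes, with a median log2 ratio of 0.12 beside 0.14 for all genes. They were Myh10 (8.43, 20.2 and 21.4 CPM), Cd69 (4.99, 13.2 and 5.95) and the plasminogen activator Plat (3.33, 7.36 and 4.08). For UAC + miR-330 against UAC, 0 were higher and 2 lower, Cd69 and the Toll-like receptor adaptor Myd88 (15.1, 18.7 and 10.5), against 6.49% and 5.6% of genes, with a median of -0.12. The Myd88 call was lost on the scale of the deposited mean counts, since the intervals overlapped, and Ahnak passed as higher. Myh10, Cd69, Plat and Myd88 were all far below S100a4 and S100a6 in level in this cluster. Ahnak was nearer to them, at 365, 448 and 630 CPM.

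Other EF-hand calcium sensors, 11 of 12 listed, served as a comparison for the S100 family. Calm2, a calmodulin gene, was at 1024, 939 and 927 CPM, the actin bundler Lcp1 at 247, 363 and 374, and Calr, an endoplasmic reticulum protein kept on the list although it binds calcium without EF-hands, at 271, 279 and 294. Over all clusters 10 had enough UMIs, and for UAC against sham 0 were higher and 1 was lower, Rcn3 (60.9, 33.8 and 28.8), against 6.02% and 5.11% of genes, with a median of -0.10. Sri and Lcp1 passed as higher over all clusters on the scale of the deposited mean counts, and Sri in the chondrocyte-like cluster. In the chondrocyte-like cluster Lcp1, a gene of blood cells, was at 8.98, 21.1 and 6.63 and was the 1 sensor higher in UAC than in sham, with 0 lower, against 7.3% and 0.915% of genes and with a list median of 0.09. It was lower again in UAC + miR-330, where Rcn1 was higher (45.6, 44.5 and 89.7), against 5.6% of genes lower and 6.49% higher and with a list median of 0.02. Lcp1 was at 1444, 1586 and 1922 in the neutrophil clusters, and the part of neutrophil RNA in its ratios was not tested. Rcn1 was also the 1 sensor higher over all clusters in UAC + miR-330 than in UAC, against 9.93% of genes, with a list median of 0.01.

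Patterns over the 52 clusters grouped the members. The Pearson correlation of log2 levels was 0.998 between S100a8 and S100a9, 0.927 between S100a4 and S100a10, 0.853 between S100a1 and S100b and 0.825 between S100a4 and S100a6. S100a11 was closer to S100a8 (0.871) than to S100a4 (0.212). Clusters of 1 library share its preparation, so these values are descriptions over clusters and not over independent samples.

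Among 10269 genes with at least 1000 UMIs, the 3 closest to S100a8 were Pglyrp1 (0.985), Tf (0.982) and Clec5a (0.973), and the same genes were closest to S100a9. Pglyrp1 is a granule protein that binds bacterial walls, and Tf, the iron carrier transferrin, was at 13704, 14641 and 14235 CPM in the neutrophil clusters, where Ltf was nearly absent. S100a11 was closest to Card19, Ctsh and AABR07044631.2 (0.968 to 0.964).

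S100b was closest to the matrix genes Fmod, Col11a2 and Col5a2 (0.974 to 0.973), and S100a1 to Igsf3, Plod2 and Flvcr2 (0.923 to 0.913). S100a4 was closest to Tubb6, Fam129b and Lgals1 (0.921 to 0.911), S100a10 to Avpi1, Lgals1 and Pea15 (0.930 to 0.925) and S100a6 to Rarg, Sh3pxd2b and Atf3 (0.916 to 0.886). Lgals1, the galectin near both S100a4 and S100a10, was at 957, 1236 and 789 CPM in the chondrocyte-like cluster, the same order of libraries as S100a4.

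Position in the genome followed these groups in part. In the RefSeq annotation of rat assembly GRCr8, 7 members lie on chromosome 2 and S100b (ENSRNOG00000001295) lies on chromosome 20 between Dip2a and Prmt2. S100a8 (ENSRNOG00000011557) and S100a9 (ENSRNOG00000011483) are neighbours, as are S100a11 and S100a10, whose patterns had a correlation of 0.0551. S100a4 (ENSRNOG00000011821) lies between S100a3 and S100a5, and S100a6 follows S100a5. The nearest pair in place was thus also the nearest in pattern for calprotectin and not for S100a10 and S100a11.

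Promoter sequences from RefSeq (GRCr8, 250 bases before to 50 after the start) were available for 5 of 8 members. Those of S100a9, S100a4 and S100b are shown because these genes stand for the neutrophil, shared and cartilage patterns. Capitals mark matches on either strand to the C/EBP motif TTNNGNAA, the TATA box TATAAA and the AP-1 motif TGANTCA, which do not overlap one another here. Of 33469 promoters of the same length, 41.3% held the first, 14.2% the second and 7.33% the third.
S100a9 (chr2:178490573-178490872, minus strand): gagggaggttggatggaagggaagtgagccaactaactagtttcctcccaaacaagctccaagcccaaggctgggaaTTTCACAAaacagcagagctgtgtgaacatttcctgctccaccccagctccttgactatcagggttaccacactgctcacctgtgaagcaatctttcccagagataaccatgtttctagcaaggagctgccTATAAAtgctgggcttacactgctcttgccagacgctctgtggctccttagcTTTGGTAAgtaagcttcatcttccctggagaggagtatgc
S100a4 (chr2:178388279-178388578, plus strand): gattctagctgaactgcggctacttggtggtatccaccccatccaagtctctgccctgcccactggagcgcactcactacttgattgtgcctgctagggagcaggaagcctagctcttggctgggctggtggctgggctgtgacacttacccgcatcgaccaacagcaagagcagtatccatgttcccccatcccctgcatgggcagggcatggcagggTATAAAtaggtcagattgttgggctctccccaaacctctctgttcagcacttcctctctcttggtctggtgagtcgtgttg
S100b (chr20:12381032-12381331, minus strand): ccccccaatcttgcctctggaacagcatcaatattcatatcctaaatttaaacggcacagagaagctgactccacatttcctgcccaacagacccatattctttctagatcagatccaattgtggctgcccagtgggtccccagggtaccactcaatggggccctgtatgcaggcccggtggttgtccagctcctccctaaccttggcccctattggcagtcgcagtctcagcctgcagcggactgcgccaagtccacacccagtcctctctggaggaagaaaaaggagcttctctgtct
S100a9 held a TATA box match and 2 C/EBP matches, S100a4 held a TATA box match and S100b held none of the 3 motifs in this window. A match describes the letters of the window and says nothing about binding in these cells.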

How the data were processed

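The authors deposited, for each library, 1 table of graph-based clusters made with Cell Ranger 7.0, whose mean counts are a normalized signal per gene and cluster; their notes also name STAR and Seurat 4.0.1, and the builds GRCh38 and mm10 although the identifiers are rat. Each deposited mean count was divided by the smallest positive mean of its column, and 100% of values came out whole to within 1e-05. The deposited log2 fold changes and adjusted p-values, which compare clusters within a library, were not used. Genes listed on several identifiers were summed.

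A cluster was named from fixed marker lists by the class with most markers enriched 2-fold in it. At least 3 of these had to reach 50 CPM, without a tie between classes. No other class could have as many genes among the 10 leading genes of the cluster. Macrophage-marker clusters had macrophage markers as the largest set but did not meet the full rule. B-marker clusters needed 7 B markers at 50 CPM and no other class with 3 enriched markers and more than B. This naming rule was settled after the tables were seen. Members and lists were chosen with earlier results of these data known. Folds used 0.5 added UMIs. With 1 library per group no test was run. Shares of UMIs rest on the depths given, and their exact binomial intervals cover counting error only. Named genes were all members, other S100 genes with 50 UMIs in a library, list genes past the fold or among the 3 most abundant, the spread markers, and the 3 genes of most similar pattern. Alternatives changed the total, the scale, the clusters included, the fold, the UMI minimum, the added UMIs and the source of the neutrophil share. Python 3.11.15, NumPy 2.4.6, pandas 2.3.3, SciPy 1.17.1 and matplotlib 3.10.9 were used, and recovery was tested on simulated data.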

Additional observations from a re-analysis of the deposited data

How the results depend on the processing

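No paired analysis was possible because each group was 1 pool of rats. Of 74 values for counts and shares under the alternatives, 41 stayed within their limits and 33 moved, and none of those with a call reversed; among 108 values of single members, 45 stayed and 63 moved. The scale of the deposited mean counts raises the log2 ratio of every gene in a comparison by the same amount. Counts of members and list genes on it are given without the share of all genes, so they cannot be set against a background. On the scale of the deposited mean counts, members past the fold in UAC against sham over all clusters went from 3 to 5, with S100a8 and S100a11 added. There, 3 uncalled log2 ratios of the comparisons with UAC changed sign over all clusters or in the chondrocyte-like cluster. On this scale members past the fold in UAC + miR-330 against sham stayed 2 over all clusters but became S100a9 and S100a11 in place of S100a1 and S100b, and went from 1 to 0 in the chondrocyte-like cluster. In the macrophage-marker cluster they went from 2 to 0 for that comparison and from 1 to 0 for UAC + miR-330 against UAC, and in the neutrophil clusters from 0 to 2 (S100a6 and S100a11) and from 1 to 0. In the Defa11-led cluster they went from 3 to 1 (S100a10) for UAC + miR-330 against UAC. Over all clusters in UAC against sham, partners past the fold went from 3 to 5, other S100 genes from 2 to 1 and EF-hand sensors from 1 to 3, and the sensors went from 1 to 2 in the chondrocyte-like cluster. To the 5 neutrophil markers called higher over all clusters in UAC against sham, Retnlg (log2 ratio 0.68) and Cd177 (0.73) were added. For UAC + miR-330 against UAC over all clusters, other S100 genes went from 1 to 0 and the neutrophil markers from 2 to 1. Among these markers the lower calls of Ngp and Retnlg were both lost, and Cxcr2 was gained as higher (log2 ratio 0.80). These checks of the lists and in macrophage-marker, neutrophil and Defa11-led clusters were chosen after seeing the data, and no other alternative was run on these counts. At a fold of 2 members past it in UAC against sham over all clusters went from 3 to 1 (S100b), and the genes past the fold went from 1584 to 594 over all clusters and from 826 to 322 in the chondrocyte-like cluster; for UAC + miR-330 against UAC they went from 1860 to 459 and from 1185 to 411. A stricter fold passes fewer genes by construction.

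After the neutrophil part was subtracted, members past the fold in UAC against sham in the chondrocyte-like cluster went from 2 to 0, because S100a8 in sham and S100a9 in every library came out negative and gave no ratio. Without the neutrophil and Defa11-led clusters, members past the fold in UAC + miR-330 against UAC went from 0 to 2 (S100a8 and S100a9, both lower), and in UAC against sham from 3 to 2, with S100a9 lost; the cause was not tested.

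The neutrophil share of the chondrocyte-like cluster, 0.444%, 1.08% and 0.306% in sham, UAC and UAC + miR-330, became 0.309%, 1.12% and 0.254% from S100a8 and S100a9 alone, and 0.594%, 1.5% and 0.269% with the neutrophil cluster of highest late markers as the source. For the macrophage-marker cluster, 1.12%, 1.15% and 1.03% became 1.84%, 1.81% and 1.40%, and 2.60%, 1.53% and 1.69%. With that source the expected part of S100a8 in the macrophage-marker cluster went from 45.8%, 48.2% and 53.2% of its level to 92.7%, 67.5% and 91.7%. The cause of these shifts was not tested. Of the 24 pairs of a member and a gene of similar pattern, 6 were also found by Spearman correlation. Clusters were made in each library alone, so like-named clusters may hold different mixtures of cells, and the smallest held 1352666 UMIs.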
